A study of Mus musculus with 6 samples.

Results

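Csf1r, Adgre1, Cd74 and Mrc1, genes that macrophages use to receive survival signals, to mark their surface, to present antigen and to take up glycoproteins, were followed on 6 expression arrays of mouse liver. The 4 genes were listed by name, and each was found as 1 probe set among the 909 genes that could be named on a focused array of glycan genes and related signalling genes. The 3 diabetic arrays held liver RNA of male mice with insulin-deficient diabetes, and the 3 wildtype arrays held liver RNA of male mice labelled healthy. The sources used here give no strain, no age and no way of inducing diabetes. The labels also leave unsaid whether each array stands for its own mouse; should 2 arrays share a mouse, the p-values below would reflect technical spread in part. The main probe set of a gene was chosen by its mean level over the 6 arrays. The genes themselves were picked with earlier results of these data known, so their levels are given as a description, and no count over them supports a statement about macrophages in general.

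Resident macrophages of the liver, the Kupffer cells, line the sinusoids, clear particles and glycoproteins from portal blood and are joined by monocyte-derived macrophages when the tissue is stressed. Csf1r encodes the receptor for the growth factor CSF1 and the cytokine IL-34, whose signals macrophages need to survive. Adgre1 encodes an adhesion G protein-coupled receptor that is used as a surface marker of mouse macrophages. Cd74 encodes the invariant chain, which guides MHC class II molecules to the compartment where antigen is loaded and also binds the cytokine MIF at the cell surface. Mrc1 encodes the mannose receptor CD206, which takes up mannose-ended and sulfated glycoproteins. Of these genes, Mrc1 is also expressed by the liver's sinusoidal endothelium, and Cd74 by B cells and dendritic cells.

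Values are log2 expression levels after RMA (robust multi-array average), in which 1 unit is a doubling. Array medians lay between 4.93 and 5.06. The hepatocyte genes Asgr1, a subunit of the asialoglycoprotein receptor, and Ahsg, a secreted plasma glycoprotein, ran from 12.19 to 12.46 and from 13.06 to 13.45 over all arrays, far above the array medians. With bulk RNA, fewer cells of a type and less RNA per cell cannot be told apart. No detection calls were used, so a value below the array median was not separated from background.

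None of the 4 genes differed between diabetic and wildtype liver by more than the spread between arrays: 0 of 4 passed a limma adjusted p of 0.05, where 4 of 1246 probe sets (0.321%) did. At an unadjusted p under 0.05 the count was again 0 of 4, beside 2.97% of all probe sets. The means of Csf1r and Adgre1 were higher and those of Cd74 and Mrc1 lower in diabetic liver. Within the groups, the same array number ranked highest for all 4 genes. In the diabetic group and in the wildtype group alike, the array labelled as replicate 3 carried the highest level of each gene, and both of these arrays lay above the other 4.

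**Figure D1:**
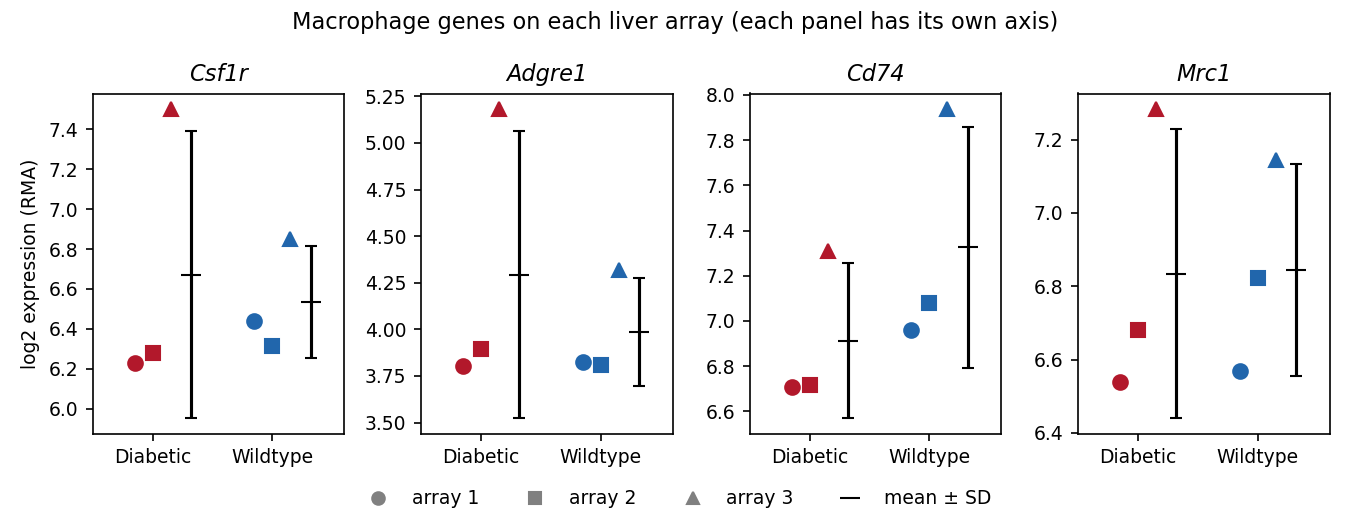
Log2 expression (vertical axes, a separate scale for each gene) of Csf1r, Adgre1, Cd74 and Mrc1 on the 3 diabetic and the 3 wildtype arrays, with symbols for the array number and bars for the mean ± SD of each group. The triangle of array 3 is the highest point of each group in every panel, from 5.18 for Adgre1 to 7.50 for Csf1r on diabetic 3.

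Csf1r read 6.23, 6.28 and 7.50 on diabetic arrays 1, 2 and 3, and 6.44, 6.31 and 6.85 on wildtype arrays 1, 2 and 3. Diabetic 3 was the highest and wildtype 3 the next, while the other 4 arrays lay within 0.21 of each other and the groups overlapped. Its mean was 6.67 ± 0.72 for the diabetic arrays and 6.54 ± 0.28 for the wildtype arrays (SD, n = 3 each). The difference, diabetic minus wildtype, was 0.14 on the log2 scale (SE 0.36, 95% confidence interval -0.73 to 1.00; limma adjusted p = 0.99). The interval runs from a fold of 0.605 to one of 2.00, so a change of Csf1r of nearly that size in either direction remains within the error.

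Adgre1 gave 3.81, 3.89 and 5.18 on the diabetic arrays, against 3.83, 3.81 and 4.32 on the wildtype arrays. The 4 arrays numbered 1 and 2 agreed within 0.087, and the gene exceeded the array medians on diabetic 3 alone. Group means were 4.29 ± 0.77 (diabetic) and 3.98 ± 0.29 (wildtype; SD, n = 3 each). The difference was 0.31 (SE 0.38, 95% confidence interval -0.61 to 1.23; limma adjusted p = 0.974). Whether the level of the 4 low arrays lay above background was not tested.

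Cd74 stood at 6.71, 6.72 and 7.31 in diabetic liver and at 6.96, 7.08 and 7.94 in wildtype liver. Here the highest array of all was wildtype 3, and diabetic 3 lay between it and the other wildtype arrays. Diabetic livers averaged 6.91 ± 0.34 and wildtype livers 7.33 ± 0.53 (SD, n = 3 each), a difference of -0.41 (SE 0.30, 95% confidence interval -1.13 to 0.30; limma adjusted p = 0.928). This was the largest difference in size among the 4 genes, 1.33-fold lower in diabetic liver, and it did not pass. The suffix of the Cd74 probe set marks probes that can match more than 1 transcript. Whether transcripts other than those of Cd74 add to the value was not tested.

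Mrc1 was measured at 6.54, 6.68 and 7.28 on the diabetic arrays and at 6.57, 6.82 and 7.14 on the wildtype arrays. The levels of same-numbered arrays were close and the groups overlapped throughout. The diabetic mean was 6.83 ± 0.40 and the wildtype mean 6.85 ± 0.29 (SD, n = 3 each), and the difference was -0.01 (SE 0.23, 95% confidence interval -0.57 to 0.55; limma adjusted p = 0.994). That interval, the narrowest of the 4, spans folds of 0.673 to 1.46.

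The promoter of Mrc1 is shown because Mrc1 was the 1 of the 4 genes with a sequence in the RefSeq promoter table that was used (build GRCm38.p6). The window, chr2:14229164-14229463 on the plus strand, holds 250 bases before and 50 after the gene's start. Capitals mark GAGGAA, the PU box bound by the macrophage transcription factor PU.1, which was searched on both strands and was found here as its reverse complement TTCCTC.
Mrc1 promoter: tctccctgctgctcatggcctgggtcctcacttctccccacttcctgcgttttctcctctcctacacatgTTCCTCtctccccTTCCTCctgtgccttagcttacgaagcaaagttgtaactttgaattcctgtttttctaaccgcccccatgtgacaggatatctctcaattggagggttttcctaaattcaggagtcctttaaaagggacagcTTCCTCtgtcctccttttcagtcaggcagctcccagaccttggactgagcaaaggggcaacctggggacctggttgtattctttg
The letters occurred 3 times in this window, with no overlap, and at least once in 28.3% of the 32851 promoter windows of that length in the table; 0.685% of windows held 3 or more. A match of letters is a description and not a binding site.

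By an exact two-sided permutation test on the arrays, which cannot go below 0.1 with 3 arrays against 3, p was 1.0 for Csf1r, 0.7 for Adgre1, 0.3 for Cd74 and 0.9 for Mrc1. For 0 of the 4 genes did the diabetic and wildtype arrays separate without overlap, against 7.87% of all probe sets. The median difference over the 4 was 0.06, beside 0.00315 over all 909 genes, of which 459 had higher and 450 lower means in diabetic liver. The spread within groups was wide: the pooled SD was 0.546 for Csf1r, 0.583 for Adgre1, 0.449 for Cd74 and 0.346 for Mrc1, while the median over all genes was 0.148.

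Deviations from the group means correlated positively between same-numbered arrays over all probe sets, so the difference was also read within each number. Arrays of different numbers were not compared in this way. Cd74 was lower on the diabetic array of every pair, by log2 differences of -0.25, -0.36 and -0.63 for numbers 1, 2 and 3. Of all genes, 11.4% were lower on the diabetic array in all 3 pairs. With the replicate number as a block, the SE of the Cd74 difference was 0.10 and its unadjusted limma p 0.0149, but the adjusted p was 0.822 and the gene was not called. That blocked fit gave an unadjusted p under 0.05 for 4.33% of probe sets and called 0 of 1246.

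**Figure D2:**
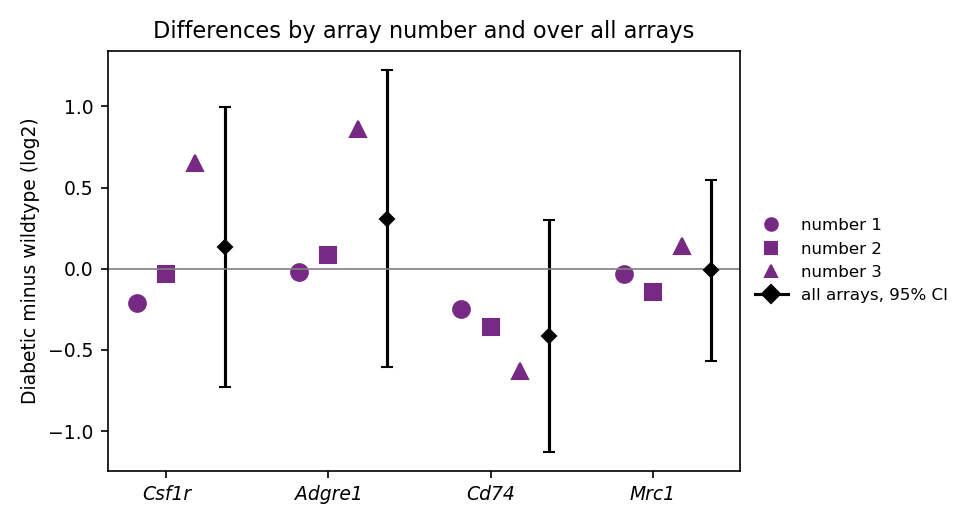
Log2 difference, diabetic minus wildtype (vertical axis), of each gene between arrays of the same number (symbols) and over all arrays with its 95% confidence interval (diamonds with bars). The 3 Cd74 symbols lie below 0. For Csf1r only number 3 is positive, at 0.65, and for Adgre1 number 3 (0.86) and number 2 (0.08).

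For Csf1r the same readings were -0.21, -0.03 and 0.65, and for Adgre1 they were -0.02, 0.08 and 0.86. The higher mean of Csf1r in diabetic liver thus came from the pair numbered 3, and that of Adgre1 came mostly from it. Mrc1 differed by -0.03, -0.14 and 0.14. With the block, limma's adjusted p was 0.906 for Csf1r, 0.832 for Adgre1 and 0.981 for Mrc1.

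Leaving out single arrays moved the differences in the same way. Without diabetic 3, Csf1r differed by -0.28, Adgre1 by -0.14, Cd74 by -0.61 and Mrc1 by -0.23, so all 4 means were then lower in diabetic liver, with limma adjusted p values of 0.964 to 0.992. Without wildtype 3 they differed by 0.29, 0.48, -0.11 and 0.14. Without both arrays numbered 3, a choice made after the values were seen, the differences were -0.12 for Csf1r, 0.03 for Adgre1, -0.31 for Cd74 and -0.09 for Mrc1. Cd74 kept its negative sign with any 1 array left out; the other 3 genes did not keep theirs.

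**Figure D3:**
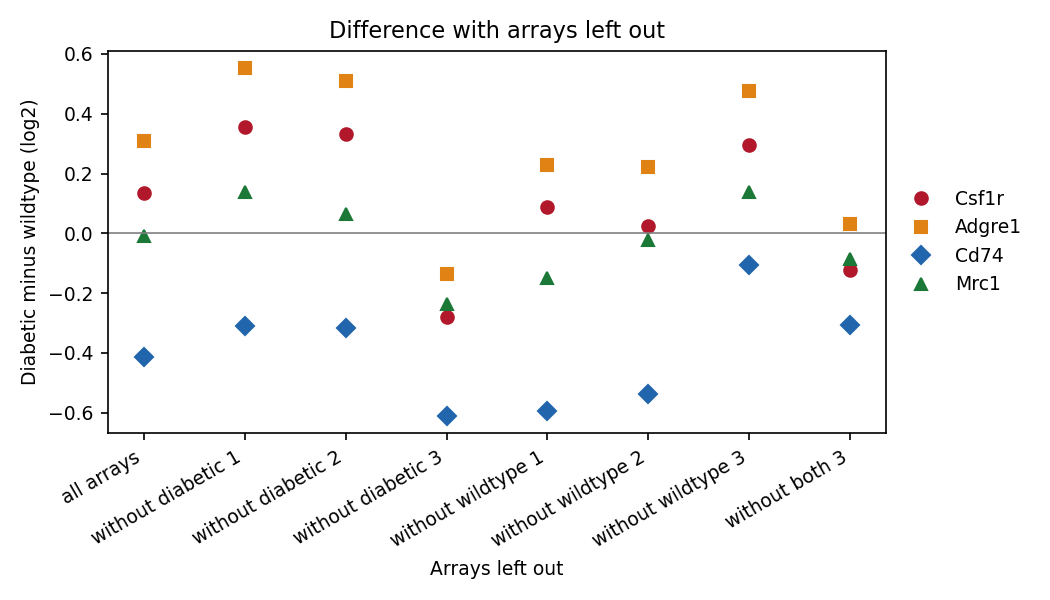
Log2 difference, diabetic minus wildtype (vertical axis), of the 4 genes over all arrays, without each array in turn and without both arrays numbered 3 (horizontal axis). Without diabetic 3 all 4 symbols lie below 0, and the Cd74 diamond lies below 0 in every column, between -0.61 and -0.11.

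The shared pattern of the arrays was followed further as a description, with no test, since it was noticed in these values. Diabetic 3 stood above the mean of diabetic 1 and 2 by 1.25 for Csf1r, 1.33 for Adgre1, 0.60 for Cd74 and 0.67 for Mrc1 on the log2 scale. Wildtype 3 stood above the mean of wildtype 1 and 2 by 0.47, 0.50, 0.92 and 0.45 for the same genes. In linear terms diabetic 3 carried 2.37 times the Csf1r level of diabetic 1 and 2, and wildtype 3 carried 1.89 times the Cd74 level of wildtype 1 and 2. Over all genes the median of the same readings was 0.03 for diabetic 3 and -0.02 for wildtype 3, a value that normalization between arrays holds near 0.

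Array 3 was the highest of its group in both groups for 103 of 909 genes (11.3%), against 12.9% for array 1 and 12.5% for array 2. All 4 macrophage genes were among the 103, a count that their choice with these data in view may have fixed. Both arrays numbered 3 exceeded the other 4 for 65 genes (7.15%). In 16 of those the gap between the lower array 3 and the highest of the others was over 0.3, and they included Adgre1 (0.43), Csf1r (0.41) and Mrc1 (0.32), while the gap of Cd74 was 0.23. Only 8 genes had a wider gap than Adgre1.

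**Figure D4:**
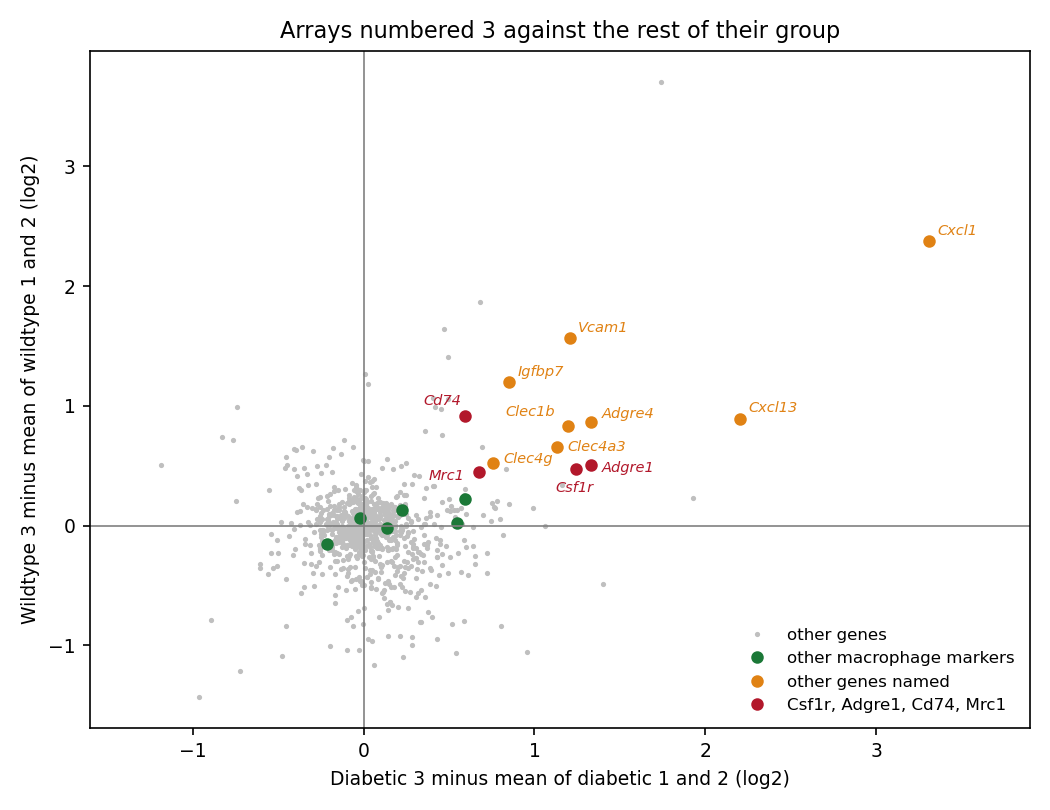
For each of 909 genes, log2 level on diabetic 3 minus the mean of diabetic 1 and 2 (horizontal axis) against the level on wildtype 3 minus the mean of wildtype 1 and 2 (vertical axis). Csf1r, Adgre1, Cd74 and Mrc1 (red) lie at the upper right with Adgre4, Clec4a3, Cxcl13 and Vcam1 (orange), whereas 6 other macrophage markers (green: Clec4f, Siglec1, Timd4, Cx3cr1, Ccr2 and Lgals3) lie nearer to 0. Of these 6, only Clec4f and Lgals3 exceeded the array medians. Clec4a3 and Vcam1 also read below the array medians on every array.

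Other macrophage and Kupffer cell markers did not all share it. Of the 10 measured markers besides the 4 genes, 2 were highest on array 3 in both groups: Lgals3, the galectin-3 gene, and Siglec1, the sialic acid receptor sialoadhesin. Lgals3 read 5.37, 5.56 and 6.05 in diabetic liver and 5.47, 5.44 and 5.68 in wildtype liver. Siglec1 varied less, at 4.55, 4.76 and 4.88 against 4.62, 4.81 and 4.84. Of the 10 markers, only Lgals3 and Clec4f exceeded the array medians. The others read below them on every array, where a value was not separated from background.

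Clec4f, a lectin receptor that marks mouse Kupffer cells, gave 5.71, 6.07 and 6.03 on the diabetic arrays, against 6.05, 5.81 and 5.91 on the wildtype arrays. It was highest on diabetic 2 and wildtype 1. Timd4, a receptor of resident macrophages for phosphatidylserine, was highest on diabetic 3 at 3.89 but, among wildtype arrays, on array 1 at 3.65. The chemokine receptors Ccr2 and Cx3cr1 of monocytes stayed within 2.63 to 2.87 and 4.01 to 4.46. The mean log2 level over the 10 markers was 4.0 to 4.23 in diabetic and 4.02 to 4.10 in wildtype liver, with 7 higher and 3 lower means, 0 called, and a median difference of 0.03.

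**Figure D5:**
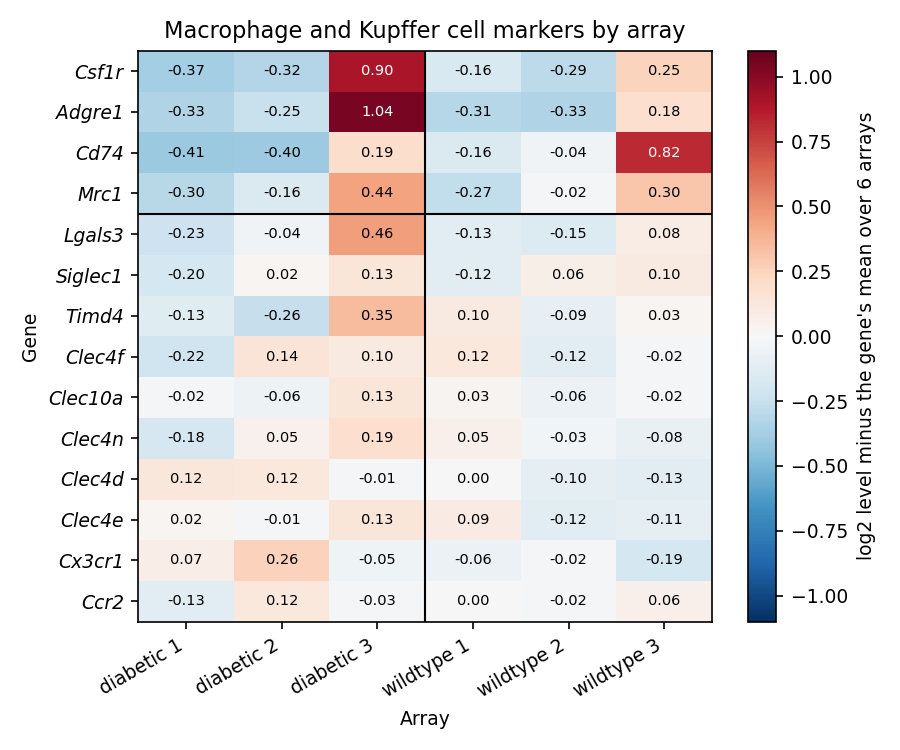
Log2 level of 14 macrophage and Kupffer cell markers (rows) on each array (columns), less the gene's mean over the 6 arrays, as colour and number. The 4 upper rows are positive on diabetic 3 and wildtype 3, and negative on the other 4 arrays; below the line the readings are mixed, with Lgals3 at 0.46 on diabetic 3 and 0.08 on wildtype 3, and Clec4f at 0.10 and -0.02.

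Some markers of other cell types moved with the arrays numbered 3 as well. Among 8 measured endothelial markers, 5 were highest on array 3 in both groups, beside 11.3% of all genes. These were Pecam1, Clec4g, Icam2, Vcam1 and Cd34. Icam1, Sele and Selp were not. Vcam1, Cd34 and Sele read below the array medians on every array, where a value was not separated from background. Icam1 was highest on diabetic 3 (7.03) but lowest on wildtype 3 (6.23). Sele was highest on diabetic 2 and wildtype 1, and Selp on array 2 in both groups. The mean log2 level of the 8 was 5.14, 5.22 and 5.66 on the diabetic arrays and 5.38, 5.39 and 5.60 on the wildtype arrays, highest on array 3 in each group. Clec4g, a lectin of the sinusoidal endothelium, which also expresses Mrc1, read 8.23, 8.17 and 8.96 in diabetic liver and 8.34, 8.72 and 9.05 in wildtype liver.

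Of 5 stellate cell and fibroblast markers, 3 were highest on array 3 in both groups (Pdgfra, Dcn and Bgn), and Lum and Pdgfrb were not. Pdgfra and Lum read below the array medians on every array. The mean log2 level of the 5 was 5.07 to 5.38 in diabetic and 5.08 to 5.70 in wildtype liver. The 7 hepatocyte markers included 1 such gene, Mbl1, and their mean was 11.17 to 11.28 in diabetic and 11.04 to 11.31 in wildtype liver. That mean hides differences from -0.61 (Igfals) to 1.03 (Mbl2). Of the 7, Mbl2 alone was called (limma adjusted p = 0.0412), where 0.321% of all probe sets were. Of 6 dendritic cell markers, 1 was highest on array 3 in both groups, Siglech, which read below the array medians on every array. The 3 neutrophil, 3 B cell and 7 T and NK cell markers included none. No listed marker of cholangiocytes was among the named genes. The part of these other cells in the levels of Csf1r, Adgre1, Cd74 and Mrc1 was not tested.

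The genes whose 6 values ran most like those of each macrophage gene were found by Pearson's r, given as a description. Nearest to Csf1r were Cxcl13, a chemokine that attracts B cells (r = 0.993, Spearman's rho = 0.829), Clec4a3, a lectin receptor of myeloid cells (0.978, 0.829), and Cd44, the hyaluronan receptor (0.973, 1.0). Adgre1 came closest to Cxcl13 (0.996, 0.886), Lgals3 (0.981, 1.0) and Cd44 (0.974, 0.829). These are the highest values among 909 genes over only 6 arrays, and some of them rest on the arrays numbered 3. Over the other 4 arrays r for Csf1r was 0.665 with Cxcl13, 0.533 with Clec4a3 and 0.926 with Cd44. For Adgre1 it was 0.173 with Cxcl13, 0.912 with Lgals3 and -0.35 with Cd44. Over those 4 arrays Csf1r spanned only 0.21 and Adgre1 only 0.087, so each r there rests on small differences.

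Cxcl13 itself gave 4.17, 4.17 and 6.37 in diabetic liver, against 4.27, 4.10 and 5.07 in wildtype liver. Mrc1 was most like Clec4a3 (r = 0.95), the extracellular sulfatase gene Sulf2 (0.947) and the IGF1 receptor gene Igf1r (0.947). Cd74 had other neighbours: the cytokine gene Il1b (r = 0.960), the chemokine gene Ccl24 (0.947) and the growth factor gene Bmp7 (0.936). Over the 4 arrays not numbered 3, r for Mrc1 was 0.459, 0.879 and 0.752 with its neighbours in that order, and r for Cd74 was 0.744, 0.724 and -0.25. Il1b read 5.82, 5.77 and 5.97 on the diabetic arrays and 5.79, 5.99 and 6.36 on the wildtype arrays, and, like Cd74, it was highest on wildtype 3.

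Relatives of Adgre1 and Mrc1 differed in how far they followed them. Adgre4, an adhesion receptor of the same EGF-TM7 family as Adgre1, read 3.57, 3.79 and 5.01 in diabetic liver and 3.71, 3.34 and 4.39 in wildtype liver, with both arrays numbered 3 above the rest. Its difference of 0.31 (limma adjusted p = 0.975) was as uncertain as that of Adgre1. The mannose receptor family has 3 further members, Mrc2, Ly75 and Pla2r1, all endocytic receptors. They differed by -0.07, -0.12 and -0.05, with 0 called, and 0 of 3 were highest on array 3 in both groups.

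Of 15 listed genes for CSF1 receptor ligands, other colony-stimulating factors and related receptor kinases, 13 were measured, with 6 higher and 7 lower means, 0 called and a median difference of -0.07. Csf1, the ligand of the Csf1r product, was 6.84, 7.02 and 7.63 on the diabetic arrays, against 7.40, 7.64 and 7.61 on the wildtype arrays. Diabetic 1 and 2 lay below every wildtype array and diabetic 3 did not. The difference was -0.39 (limma adjusted p = 0.928), and -0.26 at the dimmer of its 2 probe sets. Csf2rb, the common beta chain of the GM-CSF receptor, differed by 0.38 and Csf2ra, its alpha chain, by -0.36, and neither passed. Pdgfrb, a receptor kinase of the same class found on stellate cells, differed by -0.38. The other ligand, Il34, was not analysed here.

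Among the partners of CD74, 3 of 16 listed genes were measured and 0 called. Cd44, which joins CD74 in the MIF receptor complex, was 3.33, 3.34 and 4.32 in diabetic liver and 3.48, 3.43 and 3.60 in wildtype liver, below the array medians on every array. The chemokine receptors Cxcr2 and Cxcr4, which also bind MIF, differed by -0.29 and 0.01. MHC class II genes and Mif were not analysed here, so Cd74 could not be set beside the molecules it chaperones.

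Other macrophage lectins and scavenger receptors were 17 of 25 listed, with 12 higher and 5 lower means, 0 called and a median difference of 0.04. The 4 with the smallest p were Colec12, a scavenger receptor with a collagen-like stalk, Cd209e, a relative of DC-SIGN, and the myeloid lectins Clec4d and Clec5a. They differed by 0.19, 0.22, 0.15 and 0.20 on the log2 scale, each with a limma adjusted p of 0.928. In this list, 0 of 17 genes were highest on array 3 in both groups, and most of the 17 read below the array medians. Clec4a3 and Clec1b, lectin receptors outside the list, were highest on array 3 in both groups. The groups did not overlap for 2 of the 17, beside 7.87% of all probe sets.

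Enzymes that shape glycan ligands of the mannose receptor were 7 of 11 listed, with 3 higher and 4 lower means, 0 called and a median difference of -0.12. B4galnt3 and B4galnt4, which add the N-acetylgalactosamine that is then sulfated, differed by -0.17 and -0.19, and the sulfotransferase gene Chst9 by 0.08. Mgat1, which starts the conversion of high-mannose to complex N-glycans, differed by -0.22 (diabetic mean 8.68 ± 0.13, wildtype mean 8.90 ± 0.28, SD, n = 3 each). Each of these 4 had a limma adjusted p of 0.928. The groups did not overlap for 2 of the 7 genes, B4galnt4 and Chst9 (7.87% of all probe sets). Chst9 and B4galnt3 read below the array medians on every array, where a value was not separated from background.

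Macrophage cytokines and chemokines were 17 of 20 listed, with 9 higher and 8 lower means, 0 called, and a median difference of 0.06. An unadjusted p under 0.05 was found for 1 of the 17, beside 2.97% of all probe sets, and groups that did not overlap for 2 of the 17, beside 7.87%. Here 8 of 17 were highest on array 3 in both groups, beside 11.3% of all genes, among them Il1b, Ccl24, Ccl5 and Cxcl1. The largest such reading belonged to Cxcl1, a neutrophil-attracting chemokine, at 5.23, 6.01 and 8.94 in diabetic liver and 6.02, 5.50 and 8.13 in wildtype liver. Cxcl1 had the widest gap of all genes, and it was named, as were Vcam1, Igfbp7 and Clec1b, after its values were seen. By contrast, Ccl9, Il18, Il10 and Ccl3, the 4 with the smallest p, were not highest on array 3 in both groups; they differed by 0.45, 0.64, 0.17 and 0.18 (limma adjusted p = 0.928 each).

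Vcam1, an adhesion molecule of activated endothelium, read 3.24, 3.54 and 4.60 on the diabetic arrays and 3.45, 3.24 and 4.91 on the wildtype arrays. Each of its values lay below the array medians. Igfbp7, an IGF-binding protein abundant in vessels, read 8.24, 8.32 and 9.13 against 7.89, 8.24 and 9.27. Clec1b, the CLEC-2 receptor of platelets and also of mouse Kupffer cells, read 5.06, 4.93 and 6.19 against 5.26, 5.04 and 5.98. In each of these genes the group means were close. Both arrays numbered 3 lay above the other 4, as they did for Csf1r, Adgre1, Cd74 and Mrc1.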

How the data were processed

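Total RNA of mouse liver was hybridised on 6 arrays as biotin-labelled cRNA, with 1 sample per array, per the labels' protocols. The deposited values were made with RMA by the authors, per the submitters' processing notes, and were taken as log2 values, since they ran from 2.03 to 13.45. The RMA version and its settings are not given. RMA normalizes between arrays, so a change shared by most probe sets is not visible.

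Of 1246 probe sets, 963 were named through the RefSeq accession in their identifier and the RefSeq gene table of GRCm38.p6, which gave 909 genes; a gene with several probe sets was represented by the one with the highest mean. All probe sets were fitted with limma 3.58.1 (lmFit, eBayes) in R 4.3.3, with 4 residual and 2.44 prior degrees of freedom, Benjamini-Hochberg adjustment over 1246 and a threshold of 0.05. The script was tested on simulated data. The number of arrays limits the precision (median SE 0.11).

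The members and the 7 gene lists and 9 marker lists were chosen with earlier results of these data known. Named in the text were the 4 genes, up to 4 genes per list by p, 14 set genes where measured, the 3 most similar genes of each member, and others counted or said to be chosen afterwards. Deviations of same-numbered arrays correlated positively over all probe sets (0.397, 0.138 and 0.162 for numbers 1, 2 and 3), so a blocked fit is given. Correlations between arrays of different numbers were not computed. The labels do not say what a number stands for. Alternatives were a median shift, quantile normalization, leaving out dim probe sets, trend and robust eBayes, array weights, the block, all probe sets of a gene, a threshold of 0.10 and leaving out arrays.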

Additional observations from a re-analysis of the deposited data

How the results depend on the processing

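None of the 4 macrophage genes was called under any alternative that was run. No gene of the 7 lists was called under the alternatives counted for lists, which did not include the mean of all probe sets of a gene. Listed genes dropped with the dim probe sets were taken as not called there. Adjusted p of the 4 ran from 0.637 to 0.999 over their alternatives. The replicate block changed the errors and no call of the 4 (differences of 0.14, 0.31, -0.41 and -0.01 with it, as without it); it took the count of called probe sets from 4 to 0. That count was also 0 with trend and robust eBayes and 0 to 1 with 1 array left out (1 without wildtype 3), and 0 without both arrays numbered 3. Why the count fell was not tested, and the fits with arrays left out also hold fewer arrays. Leaving out 1 array gave differences of -0.28 to 0.36 for Csf1r, -0.14 to 0.55 for Adgre1, -0.61 to -0.11 for Cd74 and -0.23 to 0.14 for Mrc1. The sign turned for Csf1r (-0.28) and Adgre1 (-0.14) without diabetic 3, for Csf1r without both arrays numbered 3 (-0.12), and for Mrc1 without diabetic 1 (0.14), diabetic 2 (0.07) or wildtype 3 (0.14). The median difference of the 4 ran from -0.26 without diabetic 3 to 0.25 without diabetic 1. Among 64 other named genes, leaving out 1 array turned the sign of 4 to 16 uncalled differences, most without diabetic 3. Adgre1 has no value without dim probe sets, since it was among those left out. Signal over background limits Adgre1, Cd44, Adgre4, Cxcl13 and other dim genes.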
